A study of Mus musculus with 52 samples.

Results

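Elfn1, Elfn2, Grm4, Grm7 and Grm8 were followed through the brain in mice that lack the microRNA miR-146a (KO) and in wild types (WT). They are 5 of the 48526 gene IDs in each table, and encode both Elfn proteins and the group III metabotropic glutamate receptors of the brain that these proteins bind. The set was chosen by the KO and WT values of Elfn1 in the hippocampus at postnatal day 30 (P30), where that transcript was called lower, and the others joined it as its paralogue and the receptors they bind, so every value of that contrast is given as a description, with no test. The members were matched by gene ID, and all 5 passed the filter on low values at each age, with 19 to 1424 reads per gene and library.

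The study, whose title concerns brain development, has 52 libraries of poly-A RNA in 14 groups. At embryonic day 14 (E14) the tissue was whole cortex, with 5 KO and 4 WT libraries. At P30 it was amygdala, frontal cortex (called cortex here) and hippocampus, with 4 KO and 4 WT libraries in each. At postnatal day 60 (P60) the same regions had 4 KO and 3 WT libraries in the amygdala, 4 KO and 3 WT in the cortex, and 2 KO and 3 WT in the hippocampus. KO animals are labelled miR-146a KO, with neither allele nor strain stated in the labels read here; the design text says that animals of a genotype had different mothers. That text speaks of sensory cortex and P6; groups here follow the labels of the single samples, which have P60 and frontal cortex instead. Sex, read from Xist and Y-linked transcripts, was 3 female and 1 male in each KO group at P30, against 1 female and 3 male in each WT group. Values are normalised read counts (CPM, scaled to an effective library size), from 2933026 to 9469214 recovered reads per library. The tables of the 3 ages were normalised separately, so levels at different ages are set side by side without a test.

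Elfn1 and Elfn2 are transmembrane proteins with leucine-rich repeats that sit on the postsynaptic side and bind group III receptors across the synaptic cleft. Elfn1 is known from somatostatin interneurons of the hippocampus and cortex, where it recruits the receptor of Grm7 to the terminals that contact them and sets how strongly these synapses facilitate. The receptors encoded by Grm4, Grm7 and Grm8 are presynaptic, couple to inhibitory G proteins and lower transmitter release, and the fourth of the group, Grm6, is a receptor of retinal bipolar cells. miR-146a is known as a brake on innate immune signalling, and pairs with target transcripts through its seed, bases 2 to 8.

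The deleted microRNA and its nearest relative are shown because they fix which letters a target would carry. Both mature sequences come from RefSeq (GRCm38.p6), with the seed in capitals: mmu-miR-146a-5p lies at chr11:43374435-43374456 on the minus strand, and mmu-miR-146b-5p, a separate gene, at chr19:46342790-46342811 on the plus strand.
mmu-miR-146a-5p: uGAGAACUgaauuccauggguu
mmu-miR-146b-5p: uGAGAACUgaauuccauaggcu
Both have the same seed. The stretch complementary to it is AGTTCTC. A second, overlapping stretch, GTTCTCA, is complementary to all but the last base of the seed and ends in a further A. Either was searched on the sense strand in the 3′ untranslated regions of protein-coding transcripts of GENCODE M21. Elfn2 on chromosome 15 held 2 such stretches, at bases 1346 and 2384 of the 4543 bases after the stop codon of transcript Elfn2-202, shown with the match in capitals.
Elfn2 base 1346: ctctctcactgAGTTCTCtcagtgtgggt
Elfn2 base 2384: cttagaagagtGTTCTCAaggccatgttc
Elfn1, Grm4, Grm7 and Grm8 held neither stretch in regions of at most 993, 885, 1163 and 581 bases. Of 20845 genes with such a region, 19.2% held a match, and of 1216 genes with a region within 20% of the length in Elfn2, 53.5% did. The member with the match, Elfn2, was not called in any of the 6 KO and WT comparisons that were tested. The share of all tested genes called in them was 0.0158% to 0.049%, so the absence of a call says little of the match. Its log2 differences there ran from -0.03 to 0.31, and the part of the match in them was not tested.

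The targeted gene Mir146 had 1 read in 1 library, a WT hippocampus at P30, and 0 in all others, so in poly-A RNA it does not check the genotype labels. Hippocampal libraries carried the defining markers of their region: the summed level of 12 hippocampal neuron genes was 2213 to 4999 in them, against at most 1218 in the amygdala and the cortex after birth. The sum of 10 amygdala markers was 687 to 1003 in amygdala libraries, against 300.3 to 591 in the other regions after birth. Both hippocampal libraries numbered 1 at P60 stood apart. The summed level of 9 striatal neuron genes was 1025 in KO 1 and 1638 in WT 1, against 73.3 in KO 2 and 77.1 and 87.2 in WT 2 and 3. Drd2, a dopamine receptor of striatal neurons, read 64.8 and 108 in these libraries and 2.31 to 4.99 in the others, and the hippocampal sum was 2213 and 2368, against 4383 to 4999. At P30 the WT hippocampus numbered 3 also stood apart, with a choroid plexus sum over 13 genes of 9973, a myelin sum over 10 genes of 19700 and the lowest hippocampal sum of that age, 2891. The WT amygdala numbered 3 at P30 had a myelin sum of 7030, against 1832 to 2708 in the other WT amygdalae. None of the markers in these 4 lists was at 0 throughout a hippocampal group, and each single log2 difference over 0.1 that is described and moves by over 1.5 times without these libraries is given both ways.

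Elfn1 (ENSMUSG00000048988; chromosome 5, 139907943 to 139974722, plus strand, GRCm38) stood highest in the amygdala at both ages after birth. In the E14 cortex its normalised read count was 20.1, 14.3, 14.01, 20.3 and 32.0 in the 5 KO libraries, against 16.0, 12.7, 16.6 and 12.7 in the 4 WT libraries. In the P30 amygdala Elfn1 read 59.9, 63.1, 64.9 and 51.4 in KO, against 64.9, 67.0, 55.6 and 61.9 in WT. In the P30 cortex it read 37.5, 35.0, 34.9 and 35.7 in KO, against 30.2, 35.5, 32.3 and 38.8 in WT. In these 3 settings the KO and WT ranges overlap. In the P60 amygdala Elfn1 read 61.2, 63.1, 96.1 and 68.4 in KO, against 70.2, 61.1 and 62.6 in WT, with KO 3 above all other amygdala libraries. In the P60 cortex it read 39.2, 33.2, 33.2 and 38.3 in KO, against 42.4, 40.7 and 40.7 in WT. The cortex ranges at P60 do not overlap, with every KO library below every WT library.

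In the P30 hippocampus Elfn1 read 26.7, 24.4, 30.5 and 30.6 in KO, against 42.0, 47.2, 43.6 and 34.8 in WT. All 4 KO libraries lie below all 4 WT libraries, and the means were 28.0 ± 3.06 in KO and 41.9 ± 5.23 in WT (SD, n = 4 each), a ratio of the means of 0.669 and a log2 difference of -0.56. This contrast chose the gene, so no test is given. The difference lay between -0.64 and -0.50 when any single library was left out, was -0.54 without the WT libraries numbered 3 and -0.61 with sex as a covariate. These refits reuse the values that chose the gene, so they describe the difference and are no check of it. In bulk tissue, fewer cells of a type and less RNA per cell cannot be told apart.

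The partners did not all move with Elfn1 in that setting, where 3.15% of all tested genes had ranges that do not overlap (1.63% with KO lower) and 0.0316% were called. Grm4 read 8.5, 12.1, 8.91 and 7.83 in KO, against 12.7, 21.2, 16.5 and 12.2 in WT. Its highest KO library, at 12.11, lies just below its lowest WT library, at 12.18, and the log2 difference was -0.67, or -0.79 to -0.52 with single libraries left out. Grm8 read 3.59, 4.95, 8.57 and 2.75 in KO, against 5.18, 8.29, 22.4 and 5.5 in WT. Its ranges overlap, and the log2 difference of -0.79 became -0.36 without WT 3, the library with 22.4, and lay between -1.05 and -0.36 with single libraries left out. Grm7, the receptor that Elfn1 is best known to recruit, read 135, 142, 128 and 123 in KO, against 132, 110, 102 and 111 in WT. These ranges overlap, and the difference was 0.22 on the log2 scale, or 0.17 without WT 3. Elfn2 read 139, 148, 163 and 178 in KO, against 158, 141, 117 and 166 in WT, a log2 difference of 0.11 between overlapping ranges, which fell to 0.02 without WT 3, the lowest WT library.

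**Figure D1:**
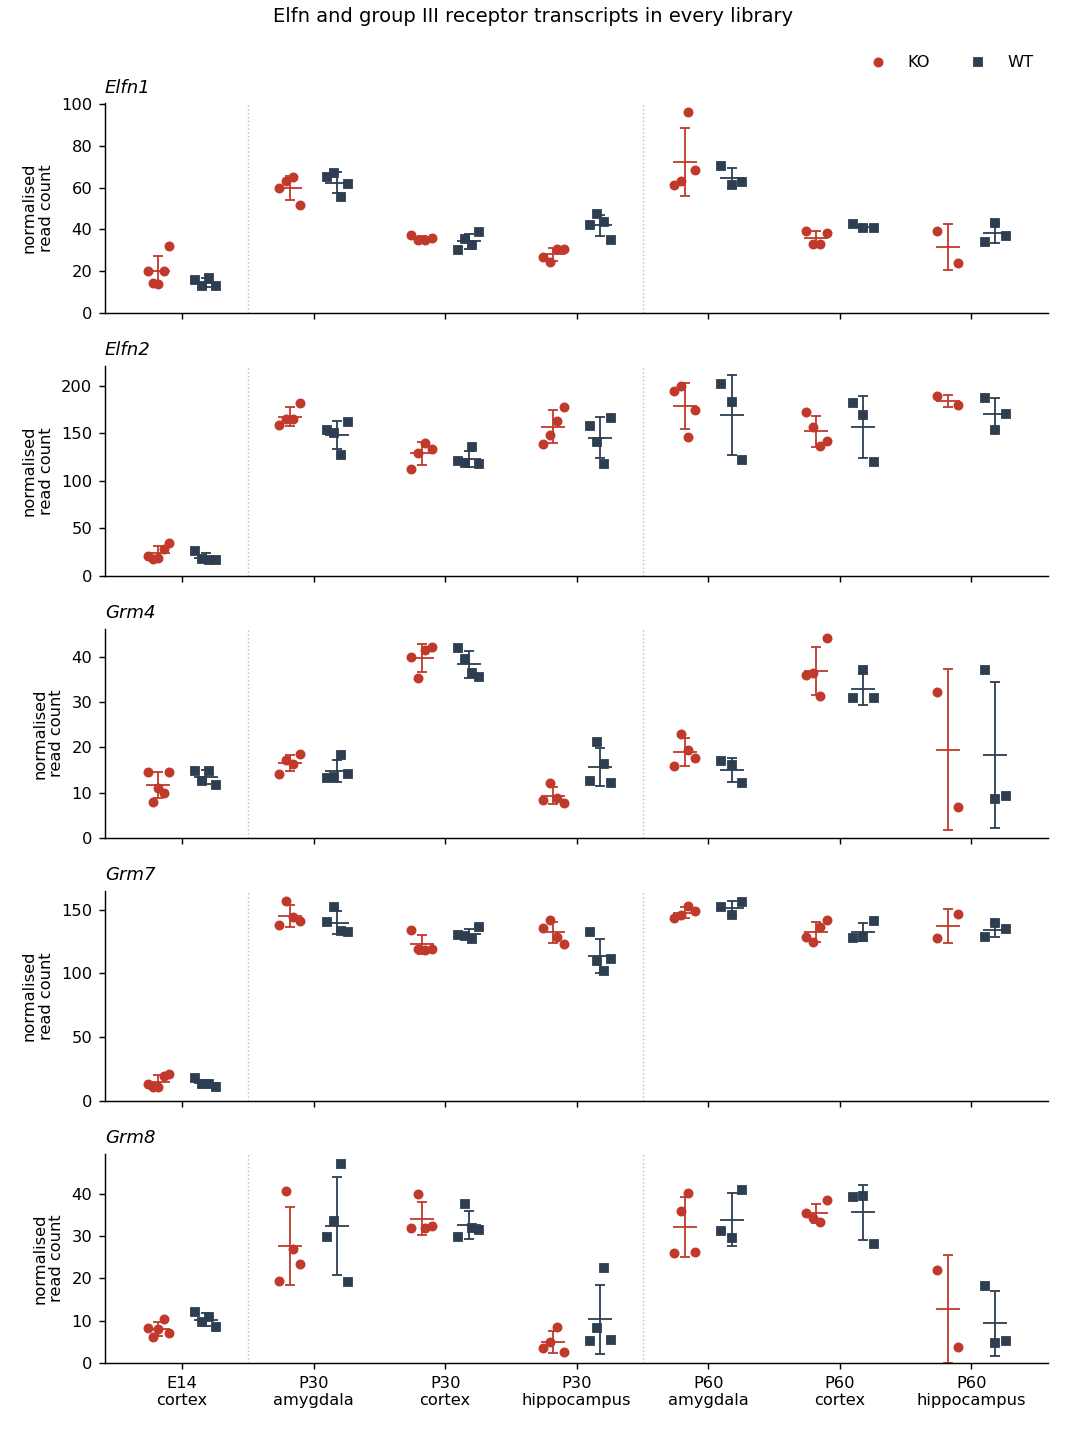
Normalised read count (y axis, from 0) of each member in every library, by age and region (x axis), with KO circles left of WT squares; horizontal marks are means and bars SD. Elfn1 in the P30 hippocampus reads 24.4 to 30.6 in KO and 34.8 to 47.2 in WT, and Grm4 and Grm8 each have 1 high KO and 1 high WT library in the P60 hippocampus.

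Cell type markers differed in the same hippocampal libraries. Sst, the transcript of somatostatin, read 52.2, 50.8, 76.1 and 91.2 in KO, against 97.5, 125, 56.2 and 121 in WT. WT 3 was the only WT library of Sst inside the KO range, while Elfn1 in that library was 43.6. Gad1, an enzyme of all GABA neurons, read 175 to 189 in KO and 170 to 219 in WT. Of 21 interneuron markers 12 were lower in KO, with a median log2 difference of -0.10 and summed levels of 1116 to 1320 in KO, against 1260 to 1399 in WT. Of 9 striatal markers 8 were lower in KO (median -0.42; sums of 57.5 to 71.0 in KO and 60.2 to 140 in WT), as were 7 of 7 genes of oligodendrocyte precursors (median -0.38; sums of 329.5 to 414 in KO and 339 to 669 in WT) and 9 of 10 of cortical progenitors (median -0.06; sums of 125.5 to 142 in KO and 130.5 to 199 in WT). All 10 myelin genes (median -0.79; sums of 5069 to 8887 in KO and 5668 to 19700 in WT) and all 13 choroid plexus genes (median -0.76; sums of 253 to 1851 in KO and 278 to 9973 in WT) were lower in KO, and 9 of 12 hippocampal genes were higher (median 0.26; sums of 3813 to 4980 in KO and 2891 to 4946 in WT). Of 8 excitatory neuron genes 6 were higher in KO (median 0.26, sums of 5946 to 6265 in KO and 3738 to 6080 in WT). WT 3 has the highest myelin and choroid plexus sums and the lowest hippocampal sum of these libraries. The median choroid plexus sums were 308 in KO and 393 in WT. The part of these markers in the values of Elfn1, Grm4 and Grm8 was not tested.

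Outside the P30 hippocampus, no difference of a member between KO and WT passed the test. In 6 settings, 0 of 5 members passed limma's test at an adjusted p of 0.05, and the share of all tested genes that passed was 0.049% in the E14 cortex, 0.0263% in the P30 amygdala, 0.0158% in the P30 cortex, 0.0208% in the P60 amygdala, 0.0312% in the P60 cortex and 0.0208% in the P60 hippocampus. Of these 30 tests 1 had an unadjusted p under 0.05, against 1.96% to 9.82% of all genes by setting. The voom fit on recovered reads also called 0. At these shares of called genes a count of 0 of 5 says little of the members. Libraries of different regions may share animals, and the p-values measure the spread between libraries.

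The lowest of the tested differences of Elfn1 were both at P60. The log2 difference was -0.20 in the P60 cortex (95% interval -0.52 to 0.12), where 1 of 5 members and 5.26% of all genes had ranges that do not overlap (2.58% with KO lower). In the other tested settings the ranges of all 5 members overlap, against shares of genes without overlap of 1.16% in the E14 cortex, 6.65% in the P30 amygdala, 2.36% in the P30 cortex, 5.04% in the P60 amygdala and 11.7% in the P60 hippocampus. In the P60 cortex 9 of 9 striatal markers were also lower in KO (median -0.79; sums of 157 to 1109 in KO and 458 to 867 in WT), as were 9 of 10 amygdala markers (median -0.24; sums of 313 to 472 in KO and 396 to 525 in WT) and 9 of 10 myelin genes (median -0.10), and their part in the value of Elfn1 was not tested. The log2 difference of Elfn1 was -0.30 in the P60 hippocampus (-0.68 to 0.08; limma, adjusted p = 1), where Elfn1 read 39.3 and 23.9 in KO, against 34.2, 43.2 and 36.8 in WT. KO 2 alone lies below the WT range there, and KO 1, one of the libraries with striatal markers, lies inside it. Without both libraries numbered 1 the difference was -0.72 (limma, adjusted p = 1), with 1 KO library left, assumed to vary like the other groups. In the E14 cortex Elfn1 was 0.39 higher in KO on the log2 scale (-0.08 to 0.86), or 0.22 to 0.50 with single libraries left out. Of 8 excitatory neuron markers 5 were higher in KO there and 3 lower (median 0.35; sums of 952 to 1588 in KO and 783 to 1084 in WT). Of 11 thalamus and habenula markers 8 were lower (median -0.48). The part of these markers in Elfn1 was not tested. In the P30 amygdala Elfn1 differed by -0.06 (-0.26 to 0.14), in the P30 cortex by 0.07 (-0.13 to 0.27) and in the P60 amygdala by 0.14 (-0.18 to 0.45). The -0.56 of the P30 hippocampus chose the gene and has a spread of its own. The intervals of these 6 settings therefore do not decide whether they differ from it.

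Elfn2 (ENSMUSG00000043460; chromosome 15, 78667331 to 78718771, minus strand) had overlapping KO and WT ranges in every setting. In the P30 amygdala it read 159, 165, 165 and 182 in KO, against 154, 151, 128 and 162 in WT. Only KO 1 lies inside the WT range there, and the log2 difference of 0.18 (95% interval -0.02 to 0.38) did not pass (limma, adjusted p = 0.578). It was 0.11 without WT 3 (limma, adjusted p = 0.859), the lowest WT value and the library with high myelin genes. In that setting all 10 myelin (median -0.54; sums of 1456 to 2370 in KO and 1832 to 7030 in WT), 13 choroid plexus (-0.83; 96.8 to 131.5 in KO and 98 to 2115 in WT), 7 oligodendrocyte precursor (-0.30; 312 to 352 in KO and 374 to 433 in WT), 9 astrocyte (-0.21; 6461 to 7153 in KO and 7233 to 10370 in WT), 10 microglial (-0.32; 199.7 to 258 in KO and 256 to 350.1 in WT) and 7 endothelial markers (-0.35; 244 to 288 in KO and 279.6 to 476 in WT) were lower in KO, and their part in the values of the members was not tested. In the E14 cortex Elfn2 read 17.5 to 34.3 in KO (median 21.1) and 16.1 to 26.0 in WT (median 16.6), with overlapping ranges. In the P30 cortex Elfn2 read 112 to 139 in KO and 118 to 135 in WT; at P60 it read 145.7 to 199 in KO and 122 to 202 in WT in the amygdala, 137 to 173 in KO and 120 to 182 in WT in the cortex, and 180 to 189 in KO and 154 to 187 in WT in the hippocampus. Every one of these ranges overlaps its partner, and the log2 differences ran from -0.03 to 0.31 over the 6 settings.

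Among the receptors, Grm7 (ENSMUSG00000056755; chromosome 6, 110645581 to 111567230, plus strand) had the smallest differences. Its log2 differences between KO and WT ran from -0.09 to 0.09 over the 6 settings, and the 95% interval reached no further than -0.24 or 0.21 in any setting after birth. In the P30 cortex Grm7 read 134, 119, 119 and 119 in KO, against 130, 129, 127 and 136 in WT. KO 2, 3 and 4 lie below the WT range and KO 1 lies within it. In the P60 amygdala it read 143 to 153 in KO and 145.8 to 156 in WT, and in the P60 cortex 124 to 141 in KO and 128 to 141 in WT. In the P30 amygdala Grm7 read 138 to 157 in KO and 133 to 152 in WT, and in the P60 hippocampus 128 and 146.3 in KO, against 128, 139 and 134 in WT. At E14, in a separately normalised table, Grm7 read 10.46 to 21.0 in KO and 10.95 to 17.97 in WT. Every one of these ranges overlaps its partner.

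Grm8 (ENSMUSG00000024211; chromosome 6, 27275119 to 28135178, minus strand) gave the smallest p of the tested settings. In the E14 cortex it read 8.29, 6.21, 8.18, 10.47 and 7.22 in KO, against 12.1, 9.67, 11.0 and 8.55 in WT. KO 1, 2, 3 and 5 lie below the WT range and KO 4 within it, and the log2 difference was -0.33 (95% interval -0.65 to -0.0031; limma, unadjusted p = 0.0482, adjusted p = 1). Of 11 thalamus and habenula markers 8 were lower in KO there (median -0.48; sums of 161 to 539 in KO and 501 to 716 in WT), as were 9 of 10 progenitor markers (median -0.11; sums of 2348 to 4081 in KO and 3001 to 3906 in WT), and their part in the value of Grm8 was not tested. In the P30 amygdala Grm8 varied widely in both genotypes, with 19.5, 40.6, 26.9 and 23.5 in KO, against 29.8, 33.6, 47.0 and 19.1 in WT. These ranges overlap almost wholly, and the highest value is that of WT 3, the library with high myelin genes; the log2 difference was -0.21 with it and -0.01 without it. The striatal sum of that library was 521, against 151 to 222 in the other WT amygdalae, and the part of these markers in Grm8 was not tested. In the P60 amygdala Grm8 read 26.0 to 40.1 in KO and 29.4 to 40.9 in WT. The cortex was more even, with 31.8 to 39.9 in KO and 29.9 to 37.4 in WT at P30, and 33.3 to 38.4 in KO and 28.2 to 39.4 in WT at P60.

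Grm4 (ENSMUSG00000063239; chromosome 17, 27422387 to 27521403, minus strand) had overlapping KO and WT ranges in every setting other than the P30 hippocampus. In the P30 cortex it read 39.9, 35.4, 41.5 and 42.1 in KO, against 41.9, 39.5, 36.4 and 35.5 in WT. In the P60 cortex it read 36.0, 36.4, 31.4 and 44.1 in KO, against 30.9, 37.0 and 31.0 in WT. The ranges overlap in both, with log2 differences of 0.05 (95% interval -0.24 to 0.34) and 0.16 (-0.83 to 1.14). The P60 interval is wide, as all P60 groups share an estimate of the spread with the hippocampus, where Grm4 read 32.2 and 6.92 in KO, against 37.0, 8.67 and 9.29 in WT. Lower levels of Grm4 were read in the amygdala, with 14.2 to 18.5 in KO and 13.2 to 18.4 in WT at P30 (a log2 difference of 0.16, or 0.26 without WT 3, neither of which passed), and 15.9 to 23.1 in KO and 12.1 to 17.0 in WT at P60. In the P60 amygdala 3 of 4 KO libraries lie above the WT range, and the log2 difference of 0.32 (-0.67 to 1.301) did not pass (limma, adjusted p = 0.999). At E14 Grm4 read 8.05 to 14.7 in KO and 11.7 to 14.9 in WT, with a log2 difference of -0.21 (-0.58 to 0.15).

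In the P60 hippocampus the 2 libraries numbered 1 decide the level of Grm4 and Grm8. KO 1 and WT 1 read 32.2 and 37.0 for Grm4, against 6.92 in KO 2 and 8.67 and 9.29 in WT 2 and 3. Grm8 read 21.9 and 18.3 in KO 1 and WT 1, against 3.85 in KO 2 and 4.90 and 5.16 in WT 2 and 3. In both genotypes the library with striatal markers is several times as high as the rest, and the part of these markers was not tested. With all libraries the log2 difference between KO and WT was 0.06 for Grm4 and 0.25 for Grm8, and without both libraries numbered 1 it was -0.33 and -0.31; none passed (limma, adjusted p = 1 with and without them). The 2 remaining WT values lie above the remaining KO value for both genes.

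**Figure D2:**
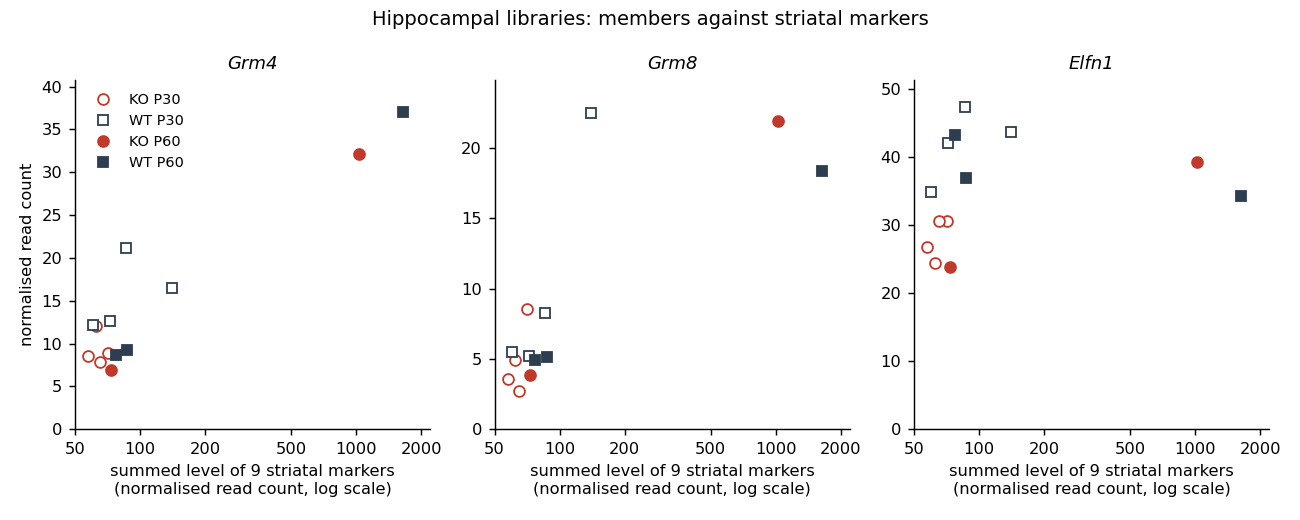
Normalised read count of Grm4, Grm8 and Elfn1 (y axes, from 0) in each hippocampal library against the summed normalised read count of 9 striatal neuron genes (x axis, log scale); KO circles and WT squares, open at P30 and filled at P60. KO 1 and WT 1 at P60 stand apart at sums of 1025 and 1638, with the highest Grm4 of all hippocampal libraries, 32.2 and 37.0, while WT 3 at P30 has the highest Grm8, 22.4, at a sum of 140.

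**Figure D3:**
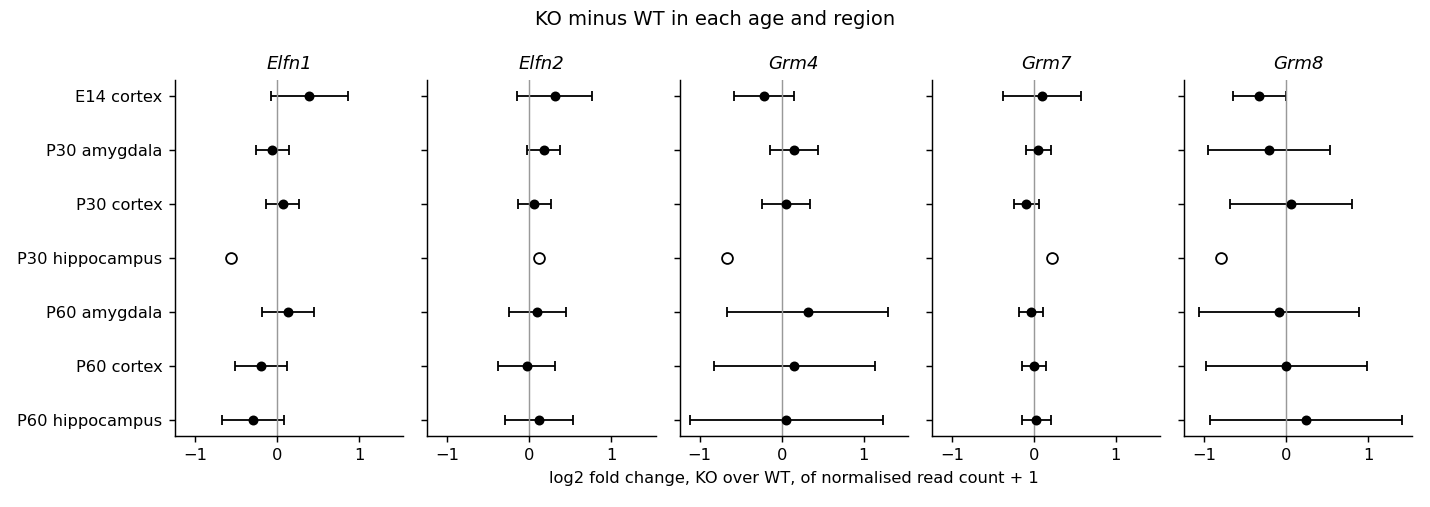
Log2 fold change of KO over WT (x axis, on normalised read count + 1) for each member (panels) in each age and region (rows). Filled points have 95% intervals from limma; open points mark the P30 hippocampus, which chose the set and is shown with no interval, at -0.56 for Elfn1, -0.67 for Grm4 and -0.79 for Grm8.

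Whether the effect of genotype differed between regions was tested where the P30 hippocampus takes no part. In 4 such comparisons, amygdala against cortex at P30 and the 3 pairs of regions at P60, 0 of 5 members passed limma's test, at a background of 0.0% of all genes each time. None of the 20 tests had an unadjusted p under 0.05, and voom called 0. Such a p was found for 3.36% of all genes in amygdala against cortex at P30. At P60 the shares were 1.95% for hippocampus against cortex, 3.14% for amygdala against cortex and 2.45% for amygdala against hippocampus. At these shares the absence of such a p says little of the members. The largest for Elfn1 was amygdala against hippocampus at P60, where the difference between the genotype effects was 0.43 on the log2 scale (95% interval -0.06 to 0.93; limma, adjusted p = 1), or 0.85 without both libraries numbered 1 (limma, adjusted p = 1).

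Regions were compared with KO and WT weighted equally. Elfn1 was higher in the amygdala than in either other region. At P30 it averaged 59.8 ± 5.95 in KO and 62.3 ± 4.98 in WT amygdala, against 35.7 ± 1.22 in KO and 34.2 ± 3.80 in WT cortex (SD, n = 4 each), and all amygdala libraries lie above all cortex libraries. The amygdala exceeded the cortex by 0.79 on the log2 scale at P30 (SE 0.0692; limma, adjusted p = 3.12e-09) and by 0.80 at P60 (SE 0.107; limma, adjusted p = 1.74e-05). It exceeded the hippocampus by 0.82 at P30 (SE 0.0692; limma, adjusted p = 4.79e-10) and by 0.97 at P60 (SE 0.118; limma, adjusted p = 7.37e-06). The P30 test with the hippocampus uses the libraries whose values chose the gene. Elfn1 averaged 28.0 in KO and 41.9 in WT in them, so the P30 difference was larger in KO than in WT.

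Between hippocampus and cortex, Elfn1 depended on which genotype was read at P30. The pooled log2 difference was -0.03, but it was -0.35 in KO and 0.28 in WT libraries alone, and since these contain the contrast that chose the gene they are given without a test. At P60 Elfn1 was -0.17 in hippocampus relative to cortex (95% interval -0.42 to 0.08; limma, adjusted p = 0.297), and -0.31 without both libraries numbered 1 (limma, adjusted p = 0.046) or -0.34 without KO 1 alone (limma, adjusted p = 0.0274). Interneuron markers differed between the regions too: their summed level at P30 was 1344 to 2311 in amygdala libraries, against 1445 to 1633 in the cortex and 1116 to 1399 in the hippocampus. Of 21 such markers 12 were called higher and 3 lower in the amygdala than in the cortex at P30 (median 0.40, against 0.06 over all genes, of which 23.4% and 13.9% were called). Their part in the level of Elfn1 was not tested.

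Elfn2 was spread more evenly. At P30 it was 0.32 higher in the amygdala than in the cortex on the log2 scale (SE 0.0693; limma, adjusted p = 6e-04) and 0.26 higher in the hippocampus than in the cortex (SE 0.0693; limma, adjusted p = 0.00389). At P60 the same differences were 0.16 (95% interval -0.08 to 0.41) and 0.21 (-0.06 to 0.48), and neither passed; without WT 3 of the amygdala the first became 0.27 (limma, adjusted p = 0.0481). Its amygdala and hippocampus differed by 0.07 at P30 (-0.07 to 0.21), or by -0.01 under scaling by a trimmed mean of M-values.

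Grm4 was highest in the cortex. At P30 it averaged 9.34 ± 1.90 in KO and 15.6 ± 4.16 in WT hippocampus, against 39.7 ± 3.06 in KO and 38.3 ± 2.96 in WT cortex (SD, n = 4 each). Not one hippocampal library reaches the lowest cortical value of 35.4. Striatal markers were also lower outside the cortex at P30. In the hippocampus 9 of 9 were called lower than in the cortex (median -2.40), against 23.7% of all genes. In the amygdala 7 of 9 were called lower and 0 higher (median -1.39), against 13.9% of all genes called lower. At P60 0 of 9 were called in either comparison. Their part in the level of Grm4 was not tested. The hippocampus differed from the cortex by a log2 value of -1.63 at P30 (SE 0.101; limma, adjusted p = 1.06e-12), with -1.99 in KO and -1.27 in WT libraries alone. The amygdala differed from the cortex by -1.27 at P30 (SE 0.101; limma, adjusted p = 6.56e-10) and -1.005 at P60 (SE 0.324; limma, adjusted p = 0.0292), where limma's adjusted p ran from 0.0359 to 0.066 with single libraries left out, above 0.05 without KO 1, WT 2 or WT 3 of the amygdala or KO 4 or WT 2 of the cortex. Every amygdala library lies below every cortex library at P60. The estimate of the spread is shared with the P60 hippocampus, where the libraries numbered 1 stand apart. At P60 the hippocampus differed from the cortex by -1.17 (SE 0.357; limma, adjusted p = 0.0213), and by -2.01 without both libraries numbered 1 (limma, adjusted p = 8.68e-10); the call was lost without KO 2, WT 2 or WT 3 of the hippocampus. Amygdala and hippocampus differed by 0.36 at P30 (SE 0.101; limma, adjusted p = 0.00453), but by -0.05 in WT libraries alone, and by 0.16 at P60, or 1.00 without both libraries numbered 1 (limma, adjusted p = 8.65e-06).

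Grm8 was lowest in the hippocampus. At P30 it averaged 4.97 ± 2.57 in KO and 10.4 ± 8.18 in WT hippocampus, against 34.0 ± 3.91 in KO and 32.7 ± 3.31 in WT cortex (SD, n = 4 each). Even WT 3, the highest hippocampal library, lies below the lowest cortical value of 29.9. The hippocampus differed from the cortex by a log2 value of -2.22 at P30 (SE 0.252; limma, adjusted p = 4.27e-07), or -2.43 without the WT libraries numbered 3. At P60 it differed by -1.90 (SE 0.356; limma, adjusted p = 0.000888), or -2.74 without both libraries numbered 1. The amygdala was higher than the hippocampus by 2.01 at P30 (SE 0.252; limma, adjusted p = 1.79e-06) and 1.79 at P60 (SE 0.356; limma, adjusted p = 0.00163), or 2.63 without that pair. Amygdala and cortex differed by -0.21 at P30 (95% interval -0.73 to 0.32; -0.31 without the WT libraries numbered 3) and -0.11 at P60 (-0.81 to 0.58), and neither passed. The striatal markers given for Grm4 were lower in both the hippocampus and the amygdala than in the cortex at P30. Relative to the hippocampus, 5 of 9 were called higher and 0 lower in the P30 amygdala (median 0.92), against 28.8% of all genes called higher. Their part in the level of Grm8 was not tested.

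The differences of Grm7 between regions were at most 0.22 on the log2 scale over both genotypes. It was higher in the amygdala than in the cortex by 0.17 at P30 (SE 0.052; limma, adjusted p = 0.0134) and 0.17 at P60 (SE 0.049; limma, adjusted p = 0.0107), calls that were lost under scaling by a trimmed mean of M-values and with voom, at 0.11 and 0.10 with each. It was higher in the amygdala than in the hippocampus by 0.22 at P30 (SE 0.052; limma, adjusted p = 0.00137), and 0.14 at P60 did not pass (limma, adjusted p = 0.0545; 0.08 without both libraries numbered 1). Hippocampus and cortex differed by -0.05 at P30 and 0.03 at P60, and neither passed.

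Counted over the members, limma called 3 of 5 between hippocampus and cortex, 4 of 5 between amygdala and cortex and 4 of 5 between amygdala and hippocampus at P30. The share of all genes called in these comparisons was 43.3%, 37.3% and 44.1%, and leaving out the WT libraries numbered 3 kept the counts at 3, 4 and 4. At P60 it called 2, 3 and 2 of 5, at 32.8%, 31.4% and 29.0% of all genes, and without both libraries numbered 1 the counts with the hippocampus became 3 and 3. Region calls were common among all genes, so these counts say little of the members; the sizes for Elfn1, Grm4 and Grm8 carry the description.

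**Figure D4:**
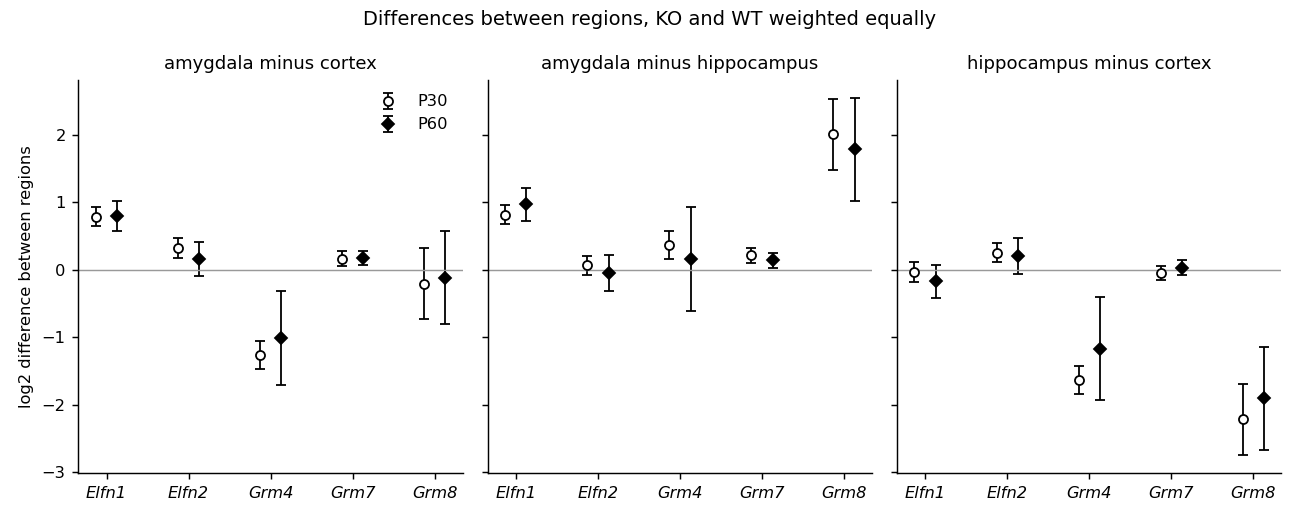
Log2 difference between regions (y axis) for each member (x axis), with 95% intervals from limma, at P30 (open circles) and P60 (filled diamonds); KO and WT weigh equally. Elfn1 lies at 0.79 to 0.97 in both amygdala comparisons, Grm8 at 2.01 and 1.79 over the hippocampus, and Grm4 and Grm8 lie far below 0 in the hippocampus relative to the cortex.

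Levels of different genes were compared per kilobase of annotated exon, since a longer transcript yields more reads. In the E14 cortex Elfn1 had the highest level of the 5, 4.83 ± 1.75 per kb in KO (SD, n = 5) and 3.48 ± 0.494 in WT (SD, n = 4), followed by Elfn2, Grm7, Grm4 and Grm8. Neighbours among Elfn2, Grm7 and Grm4 lay within 1 SD of each other there, at 2.94, 2.55 and 1.96 per kb in KO and 2.32, 2.32 and 2.25 in WT. In all 12 groups after birth Grm7 stood first, then Elfn2, then Elfn1. Grm7 and Elfn2 lay within 1 SD (the larger of the pair) in both genotypes in the P60 hippocampus and in WT in the P30 hippocampus, P60 amygdala and P60 cortex. In the P60 hippocampus Grm7 stood at 23.3 ± 2.24 and Elfn2 at 22.7 ± 0.784 per kb in KO (SD, n = 2), against 22.8 ± 0.926 and 21.0 ± 2.07 in WT (SD, n = 3). Grm4 then exceeded Grm8 in the cortex and the hippocampus, within 1 SD in the P60 hippocampus alone, and Grm8 exceeded Grm4 in the amygdala, beyond 1 SD in WT at P60 alone. In the P30 amygdala Grm8 stood at 2.79 ± 0.925 and Grm4 at 2.77 ± 0.302 per kb in KO (SD, n = 4), against 3.27 ± 1.16 and 2.48 ± 0.405 in WT (SD, n = 4).

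The balance of the receptors differed between regions. In P30 libraries the level per kb of Grm7 was 44.8 times that of Grm8 in KO and 18.5 times in WT hippocampus, against 6.07 times in KO and 6.73 times in WT cortex. WT 3 lowers the WT hippocampus ratio, as Grm8 read 22.4 in it, against 5.18 to 8.29 in the other WT libraries. Elfn2 stood at 2.88 times Elfn1 per kb in KO and 1.79 times in WT hippocampus, against 1.85 times in KO and 1.85 times in WT cortex. The KO and WT hippocampus at P30 form the contrast that chose the set, so their ratios are a description. At E14, in a separately normalised table, Elfn2 stood at 0.609 times Elfn1 per kb in KO and 0.667 times in WT. The fourth group III gene, Grm6, had at most 6 reads in total in any group.

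**Figure D5:**
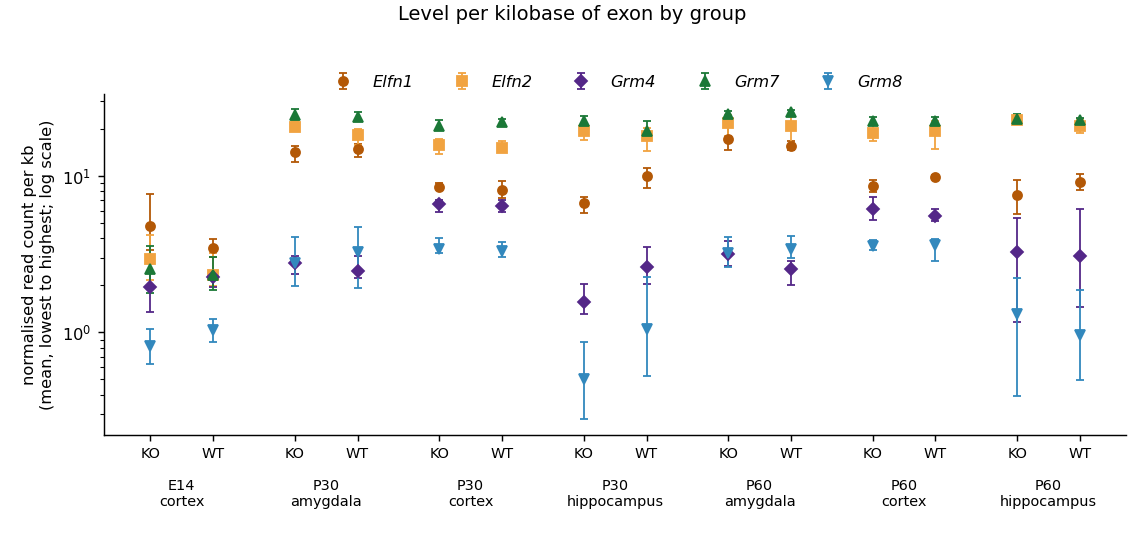
Normalised read count per kb of exon (y axis, log scale; mean, with bars from the lowest to the highest library) of the 5 members in each group, KO left of WT. After birth Grm7 and Elfn2 lie between 15.2 and 25.7 per kb in every group, while Grm8 spans 0.502 to 3.60.

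The transcripts most like each member over the 24 P30 libraries were found by Pearson's r on log2 values, as a description over libraries that share regions. For Elfn1 they were Fchsd2 (r = 0.92), Togaram2 (0.92) and Tmem130 (0.92), with r of 0.90, 0.83 and 0.95 over the 19 P60 libraries. For Grm4 they were Rcan2, a regulator of calcineurin, Cdh6, a cadherin, and Fhod3, a formin, all at 0.96, and at 0.83, 0.81 and 0.72 at P60. Grm8 ran with Sorcs1, a sorting receptor, Kcnt1, a potassium channel, and Klf6, a transcription factor, at 0.95, 0.95 and 0.94, and at 0.94, 0.97 and 0.89 at P60. Elfn2 and Grm7 had likenesses that held less well at P60: Dpy19l3, Srgap3 and Slc25a22 went with Elfn2 at 0.91, 0.90 and 0.89, and at 0.41, 0.54 and 0.31 at P60, and Cntnap5a, Ypel4 and Zfp950 with Grm7 at 0.82, 0.81 and 0.80, and at 0.83, 0.48 and 0.36 at P60.

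Around the members, 54 genes were read in 4 lists: the other metabotropic receptors, the kainate receptors with their Neto subunits (a second set of Elfn1-dependent receptors at interneuron synapses), partners and effectors of group III receptors, and other leucine-rich repeat organisers of synapses with their receptors. Between KO and WT, limma called 0 of 54 in each of the 6 tested settings; 12 of the 324 tests had an unadjusted p under 0.05, 9 of them in the P30 amygdala, where 9.82% of all genes had such a p, against 1.96% to 4.07% in the other settings, and where the glial, vascular and choroid plexus markers above were lower in KO. In the P30 hippocampus the list medians were 0.15, 0.13, 0.06 and 0.00 on the log2 scale, against 0.00 over all genes.

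Between hippocampus and cortex at P30 these lists differed widely, as many genes did (19.6% of all genes were called higher and 23.7% lower in the hippocampus). Of 19 partners and effectors 3 were called higher and 11 lower in the hippocampus (limma; median -0.24, against -0.01 over all genes), led by Rgs4, which speeds the turn-off of inhibitory G proteins, at -2.47 (SE 0.101; limma, adjusted p = 7.12e-15) and Kcnj9, a potassium channel subunit opened by such G proteins, at -1.60 (SE 0.123; limma, adjusted p = 4.18e-10). Of 24 leucine-rich repeat organisers 5 were called higher and 12 lower (median -0.18), with Lrrtm3 at -1.82 (SE 0.0859; limma, adjusted p = 1.06e-14). Of 7 kainate receptor genes 2 were called higher and 3 lower, and of 4 other metabotropic receptors 2 higher and 1 lower. In the amygdala relative to the hippocampus at P30, the 3 largest were Grik4 at -2.16, Lrrtm3 at 1.57 and Grik1 at 1.52 (limma, adjusted p at most 4.7e-10), and relative to the cortex they were Rgs4 at -1.60, Grm2 at -1.18 and Grm3 at -1.05 (limma, adjusted p at most 0.000179). Rgs4 was again lower at P60, by -1.74 in the hippocampus and -1.50 in the amygdala relative to the cortex.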

How the data were processed

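The authors deposited 3 tables, 1 per age, of normalised values of another kind than raw counts; the step sizes and column totals fit CPM on an effective library size, a unit the tables do not name. Per the file headers each column is 1 library. The build mm9 and the tools limma, edgeR and DESeq stand in the submitters' processing notes with no roles; the aligner and the counter were not given in the sources used here. The kit was stranded per the labels' protocols, but whether counting used strand is not given, so reads of Elfn2 and 1700041B01Rik, or Grm7 and Gm20387, which overlap, may be shared. In each library 100.0% of values were whole multiples of a step (tolerance 0.1 read), so reads could be recovered. Libraries held 8079912 to 9469214 of them in the E14 table, 2933026 to 8141105 in the P30 table and 5322181 to 7379353 in the P60 table. Positions and exon lengths are from GENCODE M21 (GRCm38), which held 48058 of 48526 IDs.

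limma 3.58.1 (R 4.3.3; trend, robust) was fitted to log2(value + 1) per table, with all groups of an age, with Benjamini-Hochberg adjustment over all 18350, 18976 and 19239 genes tested at E14, P30 and P60 and a threshold of 0.05. Fold changes are on that scale, which understates changes of low genes. A gene was tested if the equivalent of 10 reads (at median depth) was reached in a number of libraries equal to the smallest group, with 15 reads in all. The code was tested on simulated data. Members and lists were chosen with earlier results of these data known. The text names the 5 members in every setting, the 3 largest called genes of the pathway lists, the 3 most alike genes per member, and markers that move with a result. Alternatives were a pseudocount of 0.1, no filter, scaling by a trimmed mean of M-values, voom, fits of the compared groups alone, 1 genotype alone, sex, a replicate block, and libraries left out. The main tests did not pair KO and WT libraries, and the replicate block was an alternative. Shared numbers were taken as possible pairs in the P60 amygdala alone, where the deviations of the 3 pairs correlated at 0.28, 0.22 and 0.33. The P60 hippocampus had 2 pairs, which correlated more strongly, at 0.63 and 0.50. No label used here says which animal a number marks.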

Additional observations from a re-analysis of the deposited data

Results flagged for a closer look

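In groups of 4 or 5 libraries, 1 library stood far from the rest of its group in 4 of 50 groups of a member; chance gives about 5%. Elfn2 in the WT E14 cortex read 26.04 in library 1, against 16.1 to 17.0 in the other 3. Elfn2 in the WT P30 cortex read 135.34 in library 3, against 118 to 120 in the others. Grm7 in the KO P30 cortex read 134.2 in library 1, against 119 in each of the others. Grm8 in the KO P30 cortex read 39.87 in library 2, against 31.8 to 32.5 in the others.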

How the results depend on the processing

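Low read numbers limit Grm4 and Grm8 in the hippocampus, and 2 KO libraries limit the P60 hippocampus. Elfn1 in the P30 hippocampus lay between -0.54 and -0.61 under every setting that kept all libraries or left out the WT libraries numbered 3. Those values reuse the contrast that chose the gene and are a description. No KO and WT setting gained a call. The planned edgeR and DESeq2 fits were not run; voom on recovered reads took their place, chosen after seeing the data, as were the fits without the libraries numbered 1 (P60 hippocampus) or 3 (P30 WT). Where a value changed side, the cause was not tested.

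Calls. Between hippocampus and cortex at P60 (2 members called) the count was 1 with only these groups in the fit, 1 in WT alone, 1 in KO alone, and 1 to 3 with single libraries left out. Between amygdala and cortex it was 2 in WT alone at P30 (4 called), and 1 in WT alone and 1 in KO alone at P60 (3 called). Between amygdala and hippocampus at P60 (2 called) it was 1 in KO alone. With voom, 3 members were called between amygdala and cortex at P30 and 2 at P60, as Grm7 lost its call (limma on voom weights, adjusted p of 0.133 and 0.143).

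Directions, all log2. With the replicate block the difference between KO and WT became -0.03 for Grm7 at E14, and -0.24 for Grm4 and -0.02 for Grm8 in the P60 hippocampus; the block changed no call between KO and WT, and correlations of same-numbered libraries outside the P60 amygdala did not pass 0.1 for every pair or had 2 pairs. With sex, Grm8 in the P30 cortex became -0.06. In WT alone at P30, Elfn1 became 0.28 between hippocampus and cortex and Grm4 became -0.05 between amygdala and hippocampus; in KO alone Grm7 became 0.11 between hippocampus and cortex. Scaling by a trimmed mean of M-values and voom each gave -0.01 for Elfn2 between amygdala and hippocampus at P30, and voom gave -0.03 for Grm4 in the P60 hippocampus. Without both P60 hippocampal libraries numbered 1, Grm4 and Grm8 became -0.33 and -0.31 between KO and WT, Elfn2 0.01 between amygdala and hippocampus, and the difference of genotype effects for Grm8 became -0.32 (hippocampus and cortex) and 0.23 (amygdala and hippocampus).

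With single libraries left out, KO minus WT ranged from -0.03 to 0.23 for Grm7 at E14, from -0.11 to 0.01 for Elfn1 in the P30 amygdala, and from -0.02 to 0.12 for Grm8 in the P30 cortex. In the P60 amygdala it ranged from -0.01 to 0.21 for Elfn1, from -0.12 to 0.24 for Elfn2 and from -0.20 to 0.06 for Grm8, and in the P60 cortex from -0.21 to 0.09 for Elfn2. In the P60 hippocampus it ranged from -0.65 to 0.05 for Elfn1 (0.05 without KO 2), from -0.98 to 1.09 for Grm4, from -0.07 to 0.13 for Grm7 and from -0.87 to 1.36 for Grm8. Hippocampus minus cortex ranged from -0.06 to 0.01 for Elfn1 at P30 and from -0.02 to 0.08 for Grm7 at P60. Amygdala minus hippocampus at P60 ranged from -0.12 to 0.06 for Elfn2 and from -0.35 to 0.68 for Grm4. The difference of genotype effects at P60, hippocampus minus cortex, ranged from -0.45 to 0.25 for Elfn1, from -1.13 to 0.93 for Grm4, from -0.07 to 0.13 for Grm7 and from -0.88 to 1.36 for Grm8. Amygdala minus cortex it ranged from -0.09 to 0.31 for Elfn2 and from -0.20 to 0.07 for Grm8, and amygdala minus hippocampus from -0.24 to 0.12 for Elfn2, from -0.77 to 1.29 for Grm4, from -0.16 to 0.03 for Grm7 and from -1.45 to 0.79 for Grm8.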
